A study of Mus musculus with 173 samples.

Results

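The cells described here are non-cycling neural stem-like cells of the adult mouse dentate gyrus, split by how much ribosomal protein transcript each held. They came from 172 single-cell libraries of C57BL/6 mice aged 8 to 12 weeks, 26 with titles that begin with N, 4 with R and the others with C, letters that the labels do not explain. All but 5 of the C libraries had at least 100 TPM of Slc1a3, the glial glutamate transporter that marks radial glia-like stem cells and astrocytes. TPM, the deposited unit, counts transcripts of a gene relative to all transcripts of its library, after a correction for transcript length. Of these libraries, 56 had a mean of 1 or more on the log2(TPM + 1) scale over the cycling genes Mki67, Top2a, Cdk1, Ccnb1, Cenpf and Birc5 and were left out, and the remaining 81 were used. Their ribosomal score, the mean log2(TPM + 1) over 76 rows (46 Rpl and 30 Rps genes), ranked them into 27 ribosome-low, 27 middle and 27 ribosome-high cells. No genotype, treatment, reporter promoter or animal is named in the labels, and all groups share strain, age and tissue.

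The ribosome is built from ribosomal RNA and a large family of ribosomal proteins whose genes are usually transcribed and translated together, and many of their messages begin with a pyrimidine-rich stretch that links their translation to growth signalling through mTOR. Radial glia-like stem cells of the dentate gyrus are mostly quiescent. In neural stem cells, entry into the cell cycle is known to be preceded by higher expression of ribosomal and other protein synthesis genes, and astrocyte-like genes such as Gja1 and Aldoc are typical of the quiescent state.

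Each library is 1 cell and no animal is named, so each group counts as 1 sample. No p-value or test could be had, SDs and ranges describe cells, and a difference is always the mean log2(TPM + 1) of ribosome-low cells minus that of ribosome-high cells. Differences of at least 2, which is 4-fold on this scale, are the ones counted. The depth of the libraries is unknown, since TPM keeps none. Of all values in the selected cells 78.7% were listed at 0, and Gapdh, which every cell uses, was listed at 0 in 1 of them, so a 0 is only said to be listed.

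The score did not break at the borders between the groups. Its lowest, median and highest values were 4.05, 5.13 and 5.71 in ribosome-low cells, 5.79, 6.18 and 6.72 in middle cells and 6.75, 7.90 and 9.96 in ribosome-high cells. The last ribosome-low cell, at 5.71, thus stood beside the first middle cell at 5.79, and the last middle cell, at 6.72, beside the first ribosome-high cell at 6.75. The groups are ranges of 1 measure, with borders set by rank, and not separate types. The other boundaries of the selection were those of Slc1a3 and the cycling mean. Among C libraries with a cycling mean below 1, Slc1a3 was 128.9 TPM in the lowest kept and 16.5 TPM in the highest left out. Over all 5 C libraries under 100 TPM the highest was at 92.6 TPM. The cycling mean was 0.989 in the highest cell kept and 1.0005 in the lowest left out at Slc1a3 of at least 100 TPM. For scale, the 56 C libraries left out for their cycling mean had scores of 3.19, 7.27 and 10.12 at the lowest, median and highest. Their cycling mean ran from 1.0005 to 10.2 with a median of 1.96, and they are not all taken to be cycling. The 26 N libraries had scores of 2.80, 6.31 and 8.70, and the 4 R libraries 6.68, 7.41 and 7.75.

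**Figure D1:**
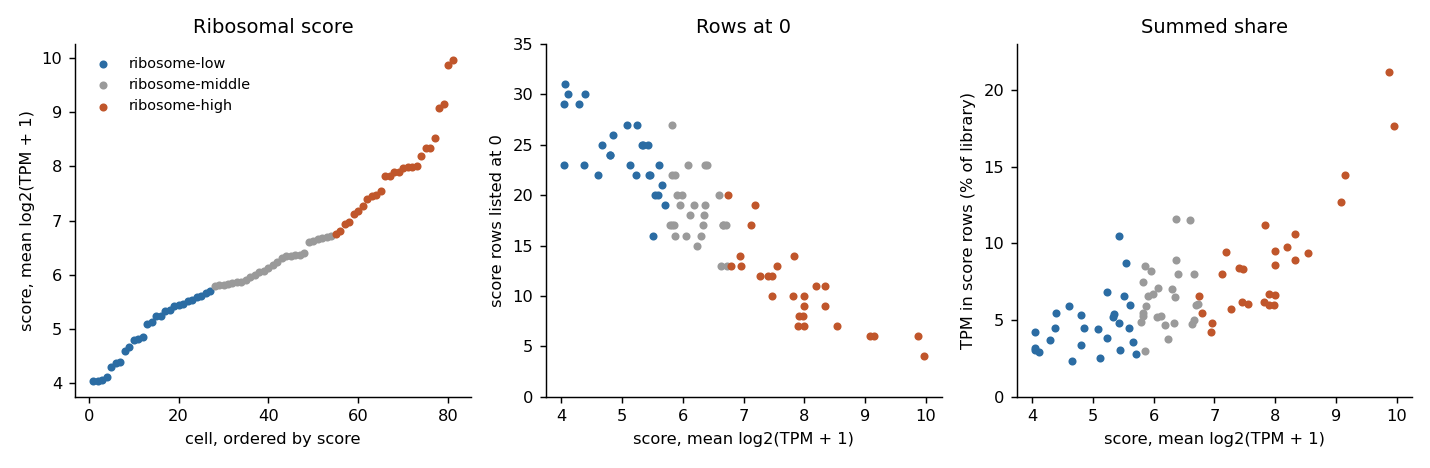
Ribosomal score of the 81 cells. Left, the score, mean log2(TPM + 1) over 76 rows, of each cell in rank order, with the 3 groups of 27 coloured; centre, the number of score rows listed at 0 in a cell against its score; right, the percent of a cell's TPM in score rows against its score. The score has no break at either border between groups (5.71 beside 5.79 and 6.72 beside 6.75), and rows listed at 0 have a median of 24 in ribosome-low, 18 in middle and 10 in ribosome-high cells.

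A low score went with more ribosomal rows listed at 0 and also with lower levels of the rows above 0. Ribosome-low cells had 16 to 31 of the 76 rows at 0 (median 24), middle cells 13 to 27 (median 18) and ribosome-high cells 4 to 20 (median 10). Over the rows above 0 alone, the mean log2(TPM + 1) was 7.30 ± 0.60 in ribosome-low, 8.22 ± 0.51 in middle and 9.20 ± 0.61 in ribosome-high cells (SD between cells, n = 27 each). The score rows held 2.32% to 10.5% of all TPM in ribosome-low cells (median 4.48%), 2.99% to 11.6% in middle cells (median 6.06%) and 4.24% to 21.2% in ribosome-high cells (median 8.31%). These ranges overlapped widely, and over the 81 cells the share of TPM had a Pearson r of 0.72 and a Spearman rho of 0.67 with the score, a description of 2 measures made from the same rows. The means over Rpl rows and over Rps rows, which share a library but no gene, had r = 0.83 and rho = 0.78.

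The number of genes detected did not order the groups. At a TPM of at least 1, ribosome-low cells held 2038 to 5150 genes (median 3585), middle cells 1717 to 4963 (median 3312) and ribosome-high cells 2550 to 6742 (median 3616), and this number had r = 0.15 and rho = 0.11 with the score. Slc1a3 itself was at 622, 5774 and 16614 TPM (lowest, median and highest) in ribosome-low cells. Middle cells were at 580, 4280 and 10507 TPM and ribosome-high cells at 128.9, 4395 and 9668 TPM. Against the score, Slc1a3 had r = -0.43 and rho = -0.37. The row Custom_eCFP1_gene, a cyan fluorescent protein transgene in the authors' reference, had medians of 10571, 7843 and 8766 TPM in low, middle and high order, with r = -0.14 and rho = -0.15.

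Among the score rows themselves, whose values made the groups, 72 of 76 were lower in ribosome-low cells and 64 were lower by at least 2, with a median difference of -2.60 over Rpl and -3.13 over Rps rows. These values describe the selection and support nothing. The difference was uneven between proteins. Rps26, a small subunit protein, was at 0 TPM at the lowest and the median and 5613 TPM at the highest in ribosome-low cells, against 0, 1952 and 13280.0 TPM in ribosome-high cells, a difference of -6.83. It was listed at 0 in 18 ribosome-low and 2 ribosome-high cells, and the ranges overlapped. Rpl27 was at -5.34, Rpl32 at -5.12 and Rps12 at -4.93. Rps12 reached a TPM of 1 in 1 ribosome-low cell and 16 ribosome-high cells. Rps27 was the least different of the rows detected, at -1.03, with a median of 430.2 TPM in ribosome-low cells and 629 TPM in ribosome-high cells. Rpl38, Rps28, Rps29 and Rpl3l never reached a TPM of 1 in the 81 cells, so they lowered every score alike. In 0 of the 76 rows did the ranges of the outer groups fail to overlap.

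The starts of these genes are shown because ribosomal protein messages are the textbook carriers of a pyrimidine stretch at their 5′ end. Windows of 30 bases, 15 on either side of the RefSeq start (build GRCm38.p6), were searched on the gene's own strand for CTTTC or CTTTT, with overlapping matches allowed. The motif, in capitals, stood in 21 of 58 score rows with a RefSeq promoter (36.2%) and in 3 of 7 ribosomal proteins outside the score (42.9%). Of all 27025 genes in the RefSeq promoter set, 8.11% held it. The first 4 windows below, chosen from ribosomal genes, hold it: Rps26 at chr10:128626492-128626521 (minus strand), Rps6 at chr4:86857353-86857382 (minus), Rplp2 at chr7:141447636-141447665 (plus) and Fau at chr19:6057932-6057961 (plus).
Rps26: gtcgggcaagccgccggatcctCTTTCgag
Rps6: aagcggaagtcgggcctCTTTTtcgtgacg
Rplp2: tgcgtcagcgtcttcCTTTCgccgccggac
Fau: tgcgcgcccccacttcttcctCTTTCttga

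Windows of 6 lower genes outside the ribosomal proteins, from oxidative phosphorylation, the proteasome, splicing and translation, do not hold these letters, as is so for most genes. Windows of some ribosomal proteins, such as Rplp0 and Rpsa, did not hold them either, so the windows shown do not separate the 2 kinds of gene. Ndufb4 lies at chr16:37654354-37654383 (minus), Psma2 at chr13:14613227-14613256 (plus), Snrpe at chr1:133610266-133610295 (minus), Eif3g at chr9:20898576-20898605 (minus), Atp5e at chr2:174464087-174464116 (minus) and Tpt1 at chr14:75845241-75845270 (plus).
Ndufb4: cgcagatgtgcgccgggagtcaagatgtcg
Psma2: atacttactgcgcatgtgcgtggctgtgtt
Snrpe: ttccgtttccgggtcttgcttccggaagtc
Eif3g: tctttacccgggctgggagctgcgtggagt
Atp5e: ggcaggtccgcgtaccccaccccttccgct
Tpt1: gtcaccgctgacgacagttccgggggagcc
The motif stood in 6 of 62 matched oxidative phosphorylation genes (9.68%), 0 of 25 proteasome genes, 2 of 19 splicing genes (10.5%), 2 of 22 initiation genes (9.09%) and 0 of 8 elongation genes. Among measured genes outside the score, 503 of 6756 held it (7.45%), with a median difference of -0.20, against -0.29 for those without it. Of the measured genes lower by at least 2, 29 of 326 held it (8.90%). A match is a run of letters and not a shown site, and a missing match says only that the letters are not in the window.

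Of 8435 genes outside the score that reached a TPM of 1 in at least 10% of the 81 cells, 400 were lower by at least 2 in ribosome-low cells (4.74%) and 9 were higher by at least 2 (0.107%). Any lower mean was found for 5444 genes (64.5%) and any higher mean for 2991 (35.5%). A gene can pass this filter through 1 group alone, so counts over measured members of a list do not speak for unmeasured ones. The median over all genes was -0.27, and the 5th and 95th percentiles were -1.97 and 0.82. The median SD between cells of a gene was 2.25 in ribosome-low and 2.48 in ribosome-high cells, so a difference of 2 is under the usual spread between cells, and 0 of the 400 genes had ranges that did not overlap. The middle cells lay between the outer groups for 334 of the 400 lower genes and 8 of the 9 higher ones. These genes were picked for a large difference between the outer groups, and no such count was made over all 8435 genes. The count therefore does not show a gradient. Lower genes were mostly genes listed at 0 in more cells: this held for 375 of the 400, and 183 had a median of 0 TPM in ribosome-low cells, against 36 in ribosome-high cells. The balance rests on how the score is made: with cells ranked by the summed TPM of the same rows, which shared 17 of 27 ribosome-low and 15 of 27 ribosome-high cells, 0.854% of genes were lower and 1.59% higher by at least 2, and the median over all genes was 0.17.

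**Figure D2:**
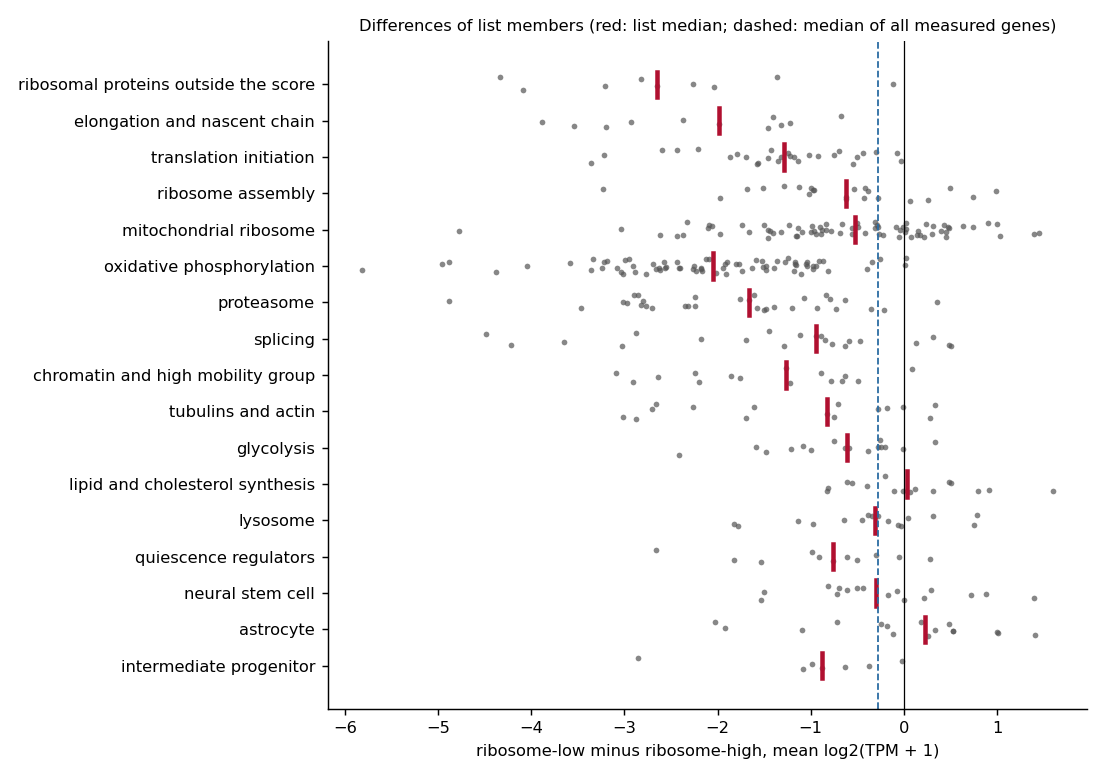
Differences (mean log2(TPM + 1), ribosome-low minus ribosome-high cells) of the members of 17 gene lists, 1 point a gene, with the list median in red and the median over all 8435 genes, -0.27, as a dashed line. Oxidative phosphorylation (median -2.05), the ribosomal proteins outside the score (-2.65) and elongation genes (-1.99) lie far left of it. The neural stem cell list (-0.30) lies just left of it and the astrocyte list (0.22) right of it.

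Transcript length moved with the difference. The median annotated length was 1371.5 bases for the 398 lower genes with a length, against 2758 bases for all measured genes and 803.5 bases for the score rows. Of genes up to 600 bases 32.6% were lower by at least 2, and the share was 17.2% at 601 to 1000 bases, 8.86% at 1001 to 1500, 3.20% at 2001 to 3000 and 1.19% above 5000 bases. Among genes at a mean level of 4 to 8, 60.5% were lower by at least 2 at up to 600 bases, 2.46% at 3001 to 5000 bases and 9.38% of 64 genes above 5000 bases, so the order did not hold at the longest transcripts. Across genes, which are not independent, Spearman's rho between length and difference was 0.16. Ribosome-low cells held 245 to 417 genes with transcripts up to 1000 bases at a TPM of 1 (median 282), middle cells 232 to 436 (median 323) and ribosome-high cells 285 to 510 (median 364). Of genes with transcripts over 2000 bases, ribosome-low cells held a median of 2226, middle cells 2081 and ribosome-high cells 2184. The part that length has in the list results below was not tested beyond the values by length given there.

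**Figure D3:**
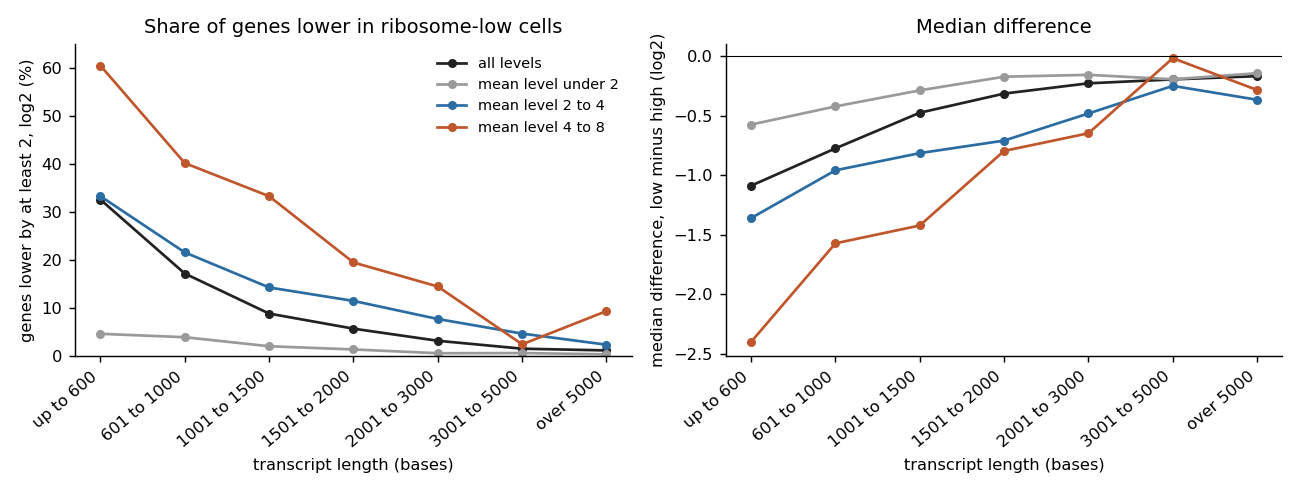
Differences by annotated transcript length in bases. Left, the percent of measured genes lower by at least 2 in ribosome-low than in ribosome-high cells, by length bin and mean log2(TPM + 1) level; right, the median difference by length bin. The share is 32.6% over all genes up to 600 bases and 1.19% above 5000 bases.

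Ribosomal proteins that the score does not use were lower with it. They are the stalk proteins Rplp0, Rplp1 and Rplp2 and the laminin receptor protein Rpsa, among others. Of 9 measured of 10 listed, 9 had lower means and 7 were lower by at least 2 (77.8%, against 4.74% of all genes), with a median of -2.65. Their mean level per cell was 4.69 ± 1.18 in ribosome-low, 5.40 ± 1.75 in middle and 7.23 ± 1.52 in ribosome-high cells (log2(TPM + 1), SD between cells, n = 27 each). Rplp1, part of the stalk that binds elongation factors, was at 0, 75.8 and 3315 TPM (lowest, median and highest) in ribosome-low cells, against 0, 1092 and 3746 TPM in ribosome-high cells, a difference of -4.34. It was listed at 0 in 13 ribosome-low and 2 ribosome-high cells, so the ranges overlapped almost wholly while the medians stood far apart. Rplp2, its partner in the stalk, was listed at 0 in 20 and 8 cells of the ribosome-low and ribosome-high groups (difference -4.09). Rplp0 differed by -2.27 and Rpsa by -1.37. RSEM divides reads among gene copies, and ribosomal proteins have many pseudogenes, so values of single ribosomal proteins are uncertain.

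**Figure D4:**
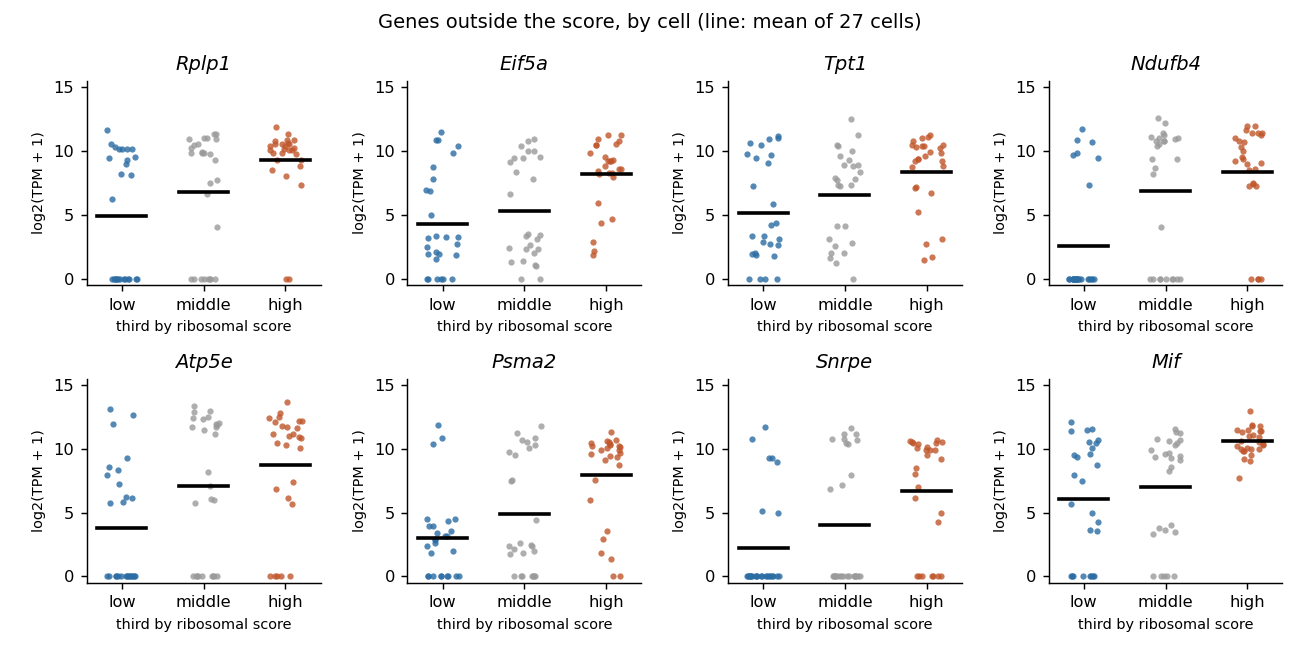
Single-cell values, log2(TPM + 1), of 8 genes lower in ribosome-low cells (left in each panel) than in ribosome-high cells (right), with middle cells between them: Rplp1, Eif5a, Tpt1, Ndufb4, Atp5e, Psma2, Snrpe and Mif. Each point is 1 of 27 cells and each line a mean. Ranges overlap in every panel, and many ribosome-low cells lie at 0, as for Ndufb4, at 0 in 20 ribosome-low and 4 ribosome-high cells.

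Factors that act on the ribosome shared the direction. Of 11 elongation and nascent chain genes, 11 had lower means and 5 were lower by at least 2 (45.5%, against 4.74% of all genes), with a median of -1.99 and list means of 4.28 ± 1.25, 5.17 ± 1.01 and 6.46 ± 1.04 in low, middle and high order (SD between cells, n = 27 each). Eif5a, which helps ribosomes through difficult peptide bonds, was at 0, 7.99 and 2822 TPM in ribosome-low cells, against 2.60, 466 and 2445 TPM in ribosome-high cells (-3.88). Btf3, a subunit of the nascent polypeptide-associated complex, differed by -3.54 and its partner Naca by -2.93. Tpt1, the translationally controlled tumor protein, was at 0, 9.20 and 2308 TPM in ribosome-low cells, against 1.74, 676 and 2486 TPM in ribosome-high cells (-3.20). For both Eif5a and Tpt1 the medians stood apart while the highest cells did not. With the summed-TPM score the list was at -0.67, Eif5a at -0.99 and Tpt1 at -1.46. Eef1a1, the abundant factor that brings aminoacyl-tRNA to the ribosome, was above 0 in every cell of both outer groups, with medians of 1730.2 TPM in ribosome-low and 3400.1 TPM in ribosome-high cells (-1.45).

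Initiation factors differed less. Of 28 measured, 28 had lower means and 5 were lower by at least 2 (17.9%, against 4.74% of all genes), with a median of -1.28, or -0.30 with the summed-TPM score. A lower mean of any size was found for 64.5% of all genes. The 12 subunits of eIF3, the scaffold that holds the small subunit on the message, had a median of -1.68 with 4 lower by at least 2, and the 16 other initiation genes had -1.03 with 1. Eif3g (-3.36) was listed at 0 in 22 ribosome-low and 10 ribosome-high cells, and Eif3k (-3.22) and Eif3l (-2.60) came next. Eif3k turned to 0.10 with the summed-TPM score. The 17 initiation genes over 2000 bases, taken at any level, had a median of -1.22. The 1509 other genes of that length with a mean level over 2 had a median of -0.34. The part of length and level was not tested.

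Genes that build ribosomes did not go with the ribosomal proteins to the same degree. Of 22 measured ribosome assembly genes, 17 had lower means and 1 was lower by at least 2 (4.55%, near the 4.74% of all genes), with a median of -0.62. That gene was Nop10, a small protein of the snoRNPs that make pseudouridine in ribosomal RNA (-3.23). Nop58 and Nop56, core proteins of the snoRNPs that methylate ribosomal RNA, differed by -1.97 and -1.68. Npm1, the abundant nucleolar chaperone, had medians of 321 TPM in ribosome-low and 709.8 TPM in ribosome-high cells (-0.62). The assembly list turned to 0.04 with the summed-TPM score and to 0.11 among cells in the middle of the range of genes per cell.

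Growth control genes showed little. Of 16 measured mTOR and Myc genes, 12 had lower means, beside 64.5% of all genes, and the median was -0.55. In this list 1 gene was lower by at least 2 (6.25%, against 4.74% of all genes). That gene was Lamtor5, a subunit of the lysosomal Ragulator complex (-2.06). Mycn, a Myc family factor of neural progenitors, differed by -1.01 and was listed at 0 in 14 cells of each outer group. The 6 measured amino acid stress genes had a median of 0.02 with 3 higher and 3 lower, and Atf4, the factor that drives that response, differed by 0.43.

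The mitochondrial ribosome, a separate machine that translates mitochondrial messages, was mixed. Of 74 measured subunits, 50 had lower and 24 higher means, 9 were lower by at least 2 (12.2%, against 4.74% of all genes) and the median was -0.53. Mrpl30, a large subunit protein, was listed at 0 in 20 ribosome-low and 7 ribosome-high cells, with medians of 0 TPM and 246 TPM in that order (-4.78). Mrps18c (-3.03) was listed at 0 in 21 and 10 cells in that order. Its relative Mrps18a went the other way, listed at 0 in 9 ribosome-low and 18 ribosome-high cells (1.46). The 20 subunits over 2000 bases had a median of -0.03, and the list median was 0.04 with the summed-TPM score.

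Oxidative phosphorylation had the most genes lower by at least 2 of any list. Of 74 measured of 76 listed, 72 had lower means and 38 were lower by at least 2 (51.4%, against 4.74% of all genes), with a median of -2.05. The list mean was 4.39 ± 0.83 in ribosome-low, 5.48 ± 1.003 in middle and 6.49 ± 0.87 in ribosome-high cells (SD between cells, n = 27 each), and its members were at 0 in 36.7% of values in ribosome-low and 20.3% in ribosome-high cells. The complexes were alike: the median was -1.92 over 35 genes of complex I, -2.30 over 4 of complex II, -2.26 over 9 of complex III, -2.23 over 11 of complex IV and -2.29 over 14 of ATP synthase. Ndufb4, an accessory subunit of complex I, was at 0, 0 and 3483 TPM in ribosome-low cells, against 0, 679 and 4064 TPM in ribosome-high cells (-5.81). It reached a TPM of 1 in 7 of 27 ribosome-low cells (25.9%, exact 95% interval 11.1% to 46.3%) and 23 of 27 ribosome-high cells (85.2%, 66.3% to 95.8%), intervals that cover the counting of cells only. Atp5e, the smallest subunit of the ATP synthase rotor, had medians of 0 TPM in ribosome-low and 1943 TPM in ribosome-high cells and was listed at 0 in 15 and 5 cells in that order (-4.88). Atp5j2, a subunit of the membrane part, differed by -4.96.

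Within bins of length this list was also lower than other genes with a mean level over 2, but level was not matched further. Its 44 members up to 1000 bases had a median of -2.25, against -1.13 for 348 other genes of that length with a mean level over 2. Its 8 members over 2000 bases had a median of -1.53, against -0.34 for 1512 others. Among all genes at a mean level of 4 to 8, list members included, the median at up to 600 bases was -2.40. At 601 to 1000 bases it was -1.57. The part that level has in the list result was not tested. With the summed-TPM score the list median was -0.63.

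Proteasome subunits, which form the main protein-degrading machine of the cell, were lower too. Of 31 measured, 30 had lower means and 14 were lower by at least 2 (45.2%, against 4.74% of all genes), with a median of -1.66 and list means of 3.31 ± 0.66, 3.73 ± 1.06 and 5.17 ± 1.19 in low, middle and high order (SD between cells, n = 27 each). The core particle (14 Psma and Psmb genes, median -1.71) and the regulatory particle (17 Psmc and Psmd genes, median -1.61) were close. Psma2, a core subunit, was at 0, 6.11 and 3737 TPM in ribosome-low cells, against 0, 801 and 2603 TPM in ribosome-high cells (-4.88). Its highest cell was a ribosome-low one, yet it was listed at 0 in 9 ribosome-low and 2 ribosome-high cells. With the summed-TPM score Psma2 was at -0.53 and the list at -0.57. Psmb5, which carries a catalytic site, differed by -3.47 and Psma6 by -3.02, while Psmb7, another catalytic subunit, was at 0.36. The 7 subunits over 2000 bases, taken at any level, had a median of -1.51. The 1514 other genes of that length with a mean level over 2 had a median of -0.35.

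Splicing genes split by family. The 7 Snrp genes, which encode proteins of the spliceosome's snRNP particles, all had lower means, 6 of them by at least 2, with a median of -3.02. The 5 Hnrnp genes had a median of -0.84 and the 6 Srsf genes -0.17, with 0 lower by at least 2 in either family. Over all 21 splicing genes the median was -0.95, or -0.39 with the summed-TPM score, and 28.6% were lower by at least 2, against 4.74% of all genes. Snrpe was at 0, 0 and 3407 TPM in ribosome-low cells, against 0, 580.1 and 1674 TPM in ribosome-high cells (-4.49), and was listed at 0 in 20 and 7 cells in that order. Snrpg (-4.22) and Snrpd2 (-3.65) followed. Srsf3, an SR protein, was at 0.50, with medians of 519 TPM in ribosome-low and 115.7 TPM in ribosome-high cells. The 3 splicing genes with transcripts up to 1000 bases were all lower by at least 2, and 0 of the 10 over 2000 bases were.

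Chromatin and cytoskeletal genes that are typical of activated progenitors were partly lower. Of 15 chromatin and high mobility group genes, 14 had lower means and 5 were lower by at least 2 (33.3%, against 4.74% of all genes), with a median of -1.27, or -0.52 with the summed-TPM score. H2afz, a histone variant, had medians of 13.98 TPM in ribosome-low and 631 TPM in ribosome-high cells (-3.09), Set, a histone chaperone, differed by -2.90 and Hmgb2 by -2.64. Of 15 tubulin, stathmin and actin genes, 13 had lower means and 5 were lower by at least 2 (33.3%, against 4.74% of all genes), with a median of -0.82, or -0.02 with the summed-TPM score. Stmn1, which destabilises microtubules and is abundant in neural progenitors, was at 1.72, 32.8 and 3970.1 TPM in ribosome-low cells, against 1.26, 1204 and 6916 TPM in ribosome-high cells (-2.88, or -1.05 with the summed-TPM score). Tubb5, a beta tubulin, differed by -3.01 and Tmsb4x, which binds actin monomers, by -2.70.

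Metabolic genes outside the mitochondrial chain moved less. The counts below stand beside 64.5% of all genes with a lower mean and 4.74% lower by at least 2. Of 16 glycolysis genes, 15 had lower means and 1, Tpi1, was lower by at least 2 (-2.42), with a median of -0.61 that turned to 0.26 with the summed-TPM score. Of 17 fatty acid oxidation genes, 12 had lower means and 2 were lower by at least 2, Hadhb (-3.13) and Echs1 (-2.61), both mitochondrial enzymes of beta oxidation, and the list median of -0.18 turned to 0.51 with the summed-TPM score. The 16 measured members of the lipid and cholesterol synthesis list were divided evenly, 8 lower and 8 higher, with a median of 0.03, or 0.96 with the summed-TPM score. Fdft1, which makes squalene, was the most different of these 16 at 1.60. Sc4mol, a sterol oxidase of cholesterol synthesis that the list does not hold, was at 2.36. Of 17 antioxidant genes, 4 were lower by at least 2 (23.5%, against 4.74% of all genes), with Prdx2, a peroxide-reducing enzyme, at medians of 12.8 TPM in ribosome-low and 1414 TPM in ribosome-high cells (-3.90). The 16 lysosome genes had a median of -0.31, which turned to 0.64 with the summed-TPM score, and 0 lower by at least 2.

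Stem cell genes were near the median of all genes, and astrocyte genes were above it. Of 16 measured neural stem cell genes other than Slc1a3, 10 had lower and 6 higher means, 0 differed by at least 2, and the median was -0.30 beside -0.27 for all genes. Their list means were 5.95 ± 0.88 in ribosome-low, 5.93 ± 0.91 in middle and 6.17 ± 1.05 in ribosome-high cells (SD between cells, n = 27 each). Of 16 astrocyte genes, 7 had lower and 9 higher means, with a median of 0.22 and list means of 4.51 ± 0.93, 4.70 ± 1.22 and 4.55 ± 1.16 in low, middle and high order. Stem cell genes that the selection did not use were thus detected in all 3 groups, and so were astrocyte genes, so these lists do not tell a stem cell from an astrocyte. With the summed-TPM score the medians were 0.30 for the neural stem cell list and 0.85 for the astrocyte list.

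**Figure D5:**
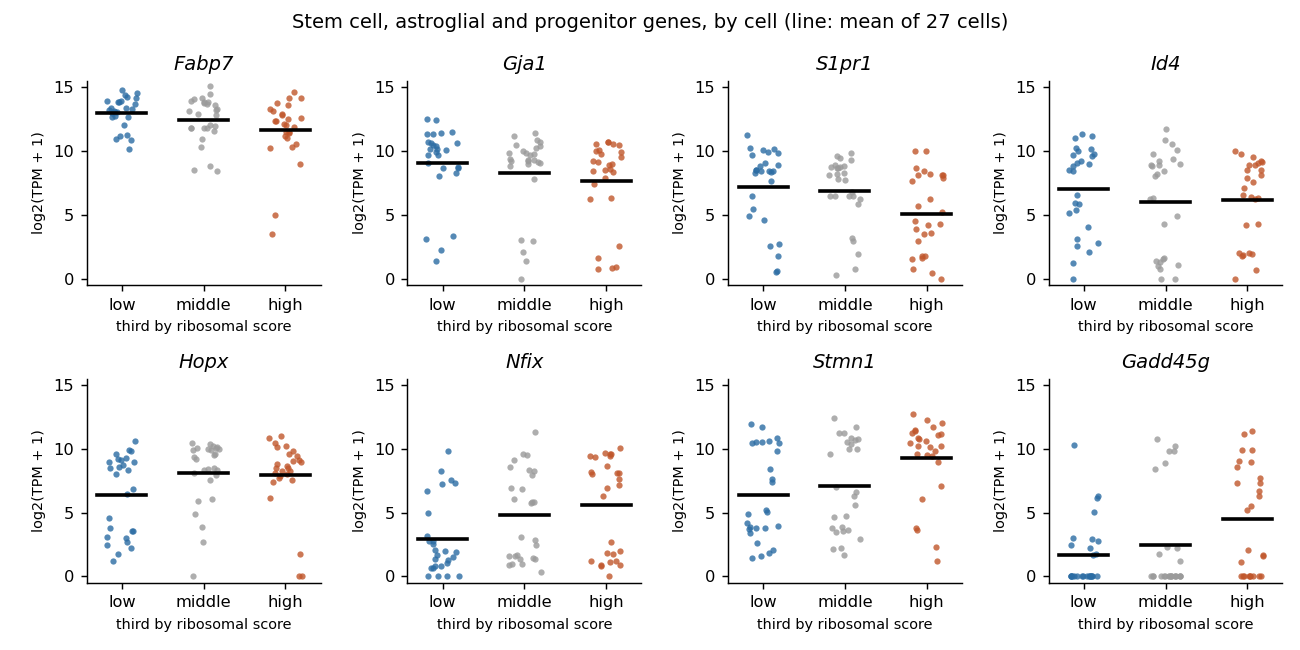
Single-cell values, log2(TPM + 1), of Fabp7, Gja1, S1pr1, Id4, Hopx, Nfix, Stmn1 and Gadd45g in ribosome-low (left), middle and ribosome-high cells (right), 27 cells a group, with a line at the mean. Fabp7, Gja1, S1pr1 and Id4 have higher means in ribosome-low cells (differences of 1.40, 1.41, 2.11 and 0.88), the other 4 have lower means, and all ranges overlap.

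Single astroglial genes went in both directions. In the astrocyte list the lowest differences were those of Fgfr3 (-2.03), Cbs (-1.92), Acsbg1 (-1.09) and Gjb6 (-0.71), and the highest those of Gja1 (1.41), Mlc1 (1.01) and Slc1a2 (0.996). Fabp7, the brain lipid-binding protein of radial glia, was at 1157, 9847 and 28989 TPM in ribosome-low cells, against 10.5, 4490.3 and 26127 TPM in ribosome-high cells (1.40). Gja1, the gap junction protein connexin 43, was at 1.67, 1062 and 6041 TPM in ribosome-low cells, against 0.69, 491 and 1709 TPM in ribosome-high cells (1.41). Id4, an inhibitor of proneural factors linked to stem cell quiescence, had medians of 365 TPM in ribosome-low and 138.1 TPM in ribosome-high cells (0.88), and it turned to -0.25 with groups of 40 cells on either side of the median score. None of these 3 reached a difference of 2, and in each the groups overlapped over most of their range. Apoe (0.29, from -0.16 to 0.98 over the alternatives) and Aldoc (0.34, from -0.01 to 1.502), the lipoprotein and the aldolase typical of astroglia, were nearly level, with Aldoc at medians of 8463 TPM in ribosome-low and 7304 TPM in ribosome-high cells. Malat1, a nuclear long noncoding RNA, had medians of 10270.0 TPM in ribosome-low and 5919 TPM in ribosome-high cells (0.72).

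Quiescence regulators mostly had lower means in ribosome-low cells. Of 11 measured quiescence regulators, 10 had lower means and 1 was lower by at least 2 (9.09%). Of all genes, 64.5% had a lower mean and 4.74% were lower by at least 2. The list median was -0.76 beside -0.27 for all genes. List means were 3.05 ± 0.74 in ribosome-low, 3.93 ± 0.80 in middle and 3.94 ± 0.89 in ribosome-high cells (SD between cells, n = 27 each). Nfix, a factor of the nuclear factor I family needed for quiescence of hippocampal stem cells, was at 0, 2.81 and 895 TPM in ribosome-low cells, against 0, 142.2 and 1098 TPM in ribosome-high cells (-2.66). Its relative Nfib differed by -1.82, and Hopx, a homeodomain protein that marks dentate stem cells, by -1.53. Thrsp, a regulator of lipogenesis in adult neural stem cells, differed by -1.50. Gfap (-0.61), Nes (-0.50) and Sox2 (-0.43) kept no direction over the alternatives, which ran from -1.92 to 1.82 for Gfap, from -0.86 to 0.38 for Nes and from -0.96 to 0.31 for Sox2. With the summed-TPM score the list was at -0.30, Nfix at -0.54 and Nfib at -0.34. Ribosome-low cells were therefore not uniformly higher in quiescence genes.

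Signalling and cell cycle genes were mostly small in their differences, though S phase genes mostly had lower means. Over all genes, 64.5% had a lower mean and 4.74% were lower by at least 2. Of 8 Notch genes, 6 had lower means and 0 were lower by at least 2, with Notch1 at -1.68. Of 10 BMP and Id genes 1, Id2, was lower by at least 2 (-2.23), and it turned to 1.31 with the summed-TPM score. Of 10 growth factor receptors, 1 was lower by at least 2, Fgfr3 (-2.03), which is also an astrocyte gene, and Insr, the insulin receptor, was at 1.29. Insr reached a TPM of 1 in 6 ribosome-low, 11 middle and 0 ribosome-high cells. Of 9 measured G1 genes 1, Cdk4, was lower by at least 2 (-2.04), and it turned to 0.09 with the summed-TPM score. The 15 measured S phase genes had 14 lower means and a median of -0.78, led by Pcna, the replication clamp (-1.79). The 10 measured G2 and mitosis genes outside the selection rule had a median of 0.06, with 5 lower and 5 higher.

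Progenitor genes had low list means in most cells. A lower mean was found for 64.5% of all genes. The list median of 7 measured of 12 listed intermediate progenitor genes was -0.88, with list means of 1.91 ± 1.17, 1.96 ± 1.49 and 2.88 ± 1.56 in low, middle and high order (SD between cells, n = 27 each). All 7 had lower means, and 1 gene was lower by at least 2 (14.3%, against 4.74% of all genes). That gene was Gadd45g, a growth arrest gene turned on in neurogenic progenitors, at 0, 0 and 1246 TPM in ribosome-low cells, against 0, 36.3 and 2722 TPM in ribosome-high cells (-2.85). It was listed at 0 in 16 and 9 cells in that order. Ccnd2, a G1 cyclin, differed by -0.88. Eomes, which is listed but was not among the 7 measured, differed by -0.04. It reached a TPM of 1 in 3 ribosome-low, 3 middle and 1 ribosome-high cells. The summed TPM of the 12 genes had a median of 334.9 in ribosome-low and 523 in ribosome-high cells. The mean over the 12 genes reached 4 in 0 ribosome-low cells, 1 middle cell (5.58, with a sum of 9488 TPM) and 1 ribosome-high cell (4.77, with 3767 TPM). Of the 7 neuroblast genes measured the median was -0.14.

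The 9 genes higher by at least 2 in ribosome-low cells stood outside all lists as these were drawn up. They were Atad1 (2.45), an extractor of misplaced membrane proteins, Sc4mol (2.36), a sterol oxidase of cholesterol synthesis, Cd302 (2.18), a lectin receptor, S1pr1 (2.11), Isca1 (2.11), an iron-sulfur assembly protein, Gm20337 (2.06), Slc9a3r1 (2.06), a scaffold of membrane proteins, Tmem170 (2.03) and the row named Nanog (2.02). S1pr1, a sphingosine-1-phosphate receptor of astroglia, was at 0.43, 342 and 2512 TPM in ribosome-low cells, against 0, 22.2 and 1057 TPM in ribosome-high cells. It was near 0 in few cells of any group, and the middle cells, at a median of 219 TPM, lay between the outer groups. Atad1 reached a TPM of 1 in 21 ribosome-low, 8 middle and 11 ribosome-high cells, and was the 1 gene of the 9 whose middle mean lay outside the outer means. The row named Nanog had medians of 31.9 TPM in ribosome-low and 2.59 TPM in ribosome-high cells. This pluripotency gene has close copies in the genome, and the value of the row is uncertain.

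Outside the score and the lists, the genes with the lowest differences, among those at a TPM of 1 in at least 50% of ribosome-high cells, were Dpm3 (-4.91), 2410015M20Rik (-4.88), Rpl36al (-4.78), Mif (-4.55), Smim11 (-4.54), Grcc10 (-4.40), Hint1 (-4.36), Gm6402 (-4.35), Atp6v1g1 (-4.33) and Myl6 (-4.30). Rpl36al, a ribosomal protein gene whose symbol the score rule leaves out, was listed at 0 in 20 ribosome-low and 6 ribosome-high cells. Mif, the macrophage migration inhibitory factor, was at 0, 181 and 4514 TPM in ribosome-low cells, against 209, 1496 and 7999 TPM in ribosome-high cells. The lowest ribosome-high cell thus stood above the ribosome-low median. Myl6, a myosin light chain, had medians of 11.8 TPM in ribosome-low and 706 TPM in ribosome-high cells. Hspa8, the constitutive heat shock protein, was at 8.54, 1987 and 9009 TPM in ribosome-low cells, against 843, 3175 and 4595 TPM in ribosome-high cells (-2.38), with a much wider spread in ribosome-low cells. Mif, Hint1, Tpt1, Eef1a1 and predicted genes such as Gm6402 have near-identical copies, so their values share the uncertainty of the ribosomal proteins.

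Markers of other cell types were low in most cells. A mean of at least 4 over the oligodendrocyte precursor, oligodendrocyte, endothelial, mural, mature neuron or erythroid list was reached by 1 ribosome-low, 0 middle and 4 ribosome-high cells. Summed TPM over the 8 precursor markers ranged from 0 to 7.63 in ribosome-low and from 0 to 2664 in ribosome-high cells, over the 9 endothelial markers from 0 to 1049 and from 0 to 2435 in that order, and over the 13 mature neuron markers from 0.58 to 1202 and from 0.99 to 3673. The sum over 5 erythroid markers ranged from 0 to 9935 in ribosome-low cells, with a median of 6.83, and from 0 to 3565 in ribosome-high cells, with a median of 0. Cdh5 was at 0 in all ribosome-low cells and Pecam1 in all ribosome-high cells. Without these 5 libraries 4.78% of genes were lower and 0.118% higher by at least 2.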

How the data were processed

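Single-cell RNA-seq values came from 1 table of 23307 rows and 172 libraries, and the labels list 173 samples. Total RNA of each cell went through NuGEN's Ultralow V2 kit, per the labels' protocols. The deposited values are TPM per gene. The submitters' processing notes name RSEM and mm9 without a version, and the annotation and cell filters were not given in the sources used here. TPM keeps no depth, and RSEM shares reads among gene copies. Column C27 fits 2 titles. It was not among the cells used. No 2 selected columns were identical (0 pairs).

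Cells were ranked by the ribosomal score and split into 3 groups of 27. For each gene outside the score with a TPM of at least 1 in at least 10% of the 81 cells, the mean log2(TPM + 1), pseudocount 1, was compared between the outer groups without a test. Exact 95% intervals (Clopper-Pearson) were put on shares of cells. The calculation was run on measured values shuffled between cells, with a known shift added to some genes. That checks the arithmetic only and says nothing about the results above. Members and the 39 gene lists were chosen with earlier results of these data known. Genes were named from the 3 most different members of each list (1 for most cell type lists and for lists with small differences), the 10 highest and 10 lowest outside all lists among genes at a TPM of 1 in at least 50% of the higher group, a fixed set of 19 genes, and the 5 most and 5 least different score rows. Others named were chosen after their values were seen: Mrps18a, Naca, Npm1, Fau, Psmb7 and Srsf3. Some genes that the rule names are not reported here. Transcript lengths came from GENCODE M21 and matched 99.0% of measured genes, 439 through synonyms. Start windows came from RefSeq, GRCm38.p6. In all 17 alternatives were computed. Python 3.11.15, numpy 2.4.6, pandas 2.3.3, scipy 1.17.1 and matplotlib 3.10.9 were used.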

Additional observations from a re-analysis of the deposited data

How the results depend on the processing

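Genes lower and higher by at least 2 in ribosome-low cells were 4.74% and 0.107% of those measured. The 2 shares were 10.2% and 0.735% with a pseudocount of 0.1, and 1.17% and 0.0119% with a pseudocount of 10. They were 2.46% and 0.0553% with no filter on low values, and 9.20% and 0.227% with a TPM of 1 asked in 30% of cells. Groups of 40 cells on either side of the median score gave 1.70% and 0.0237%, and outer groups of 16 cells gave 8.83% and 0.794%. The summed-TPM score gave 0.854% and 1.59%, the score from Rpl rows 4.61% and 0.0474%, and cells in the middle of the range of genes per cell 5.49% and 0.931%. Transcripts over 1500 bases, an alternative chosen after seeing the data, gave 2.62% and 0.104%. Leaving out any 1 of the outer cells gave 388 to 429 lower and 5 to 10 higher genes.

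The summed-TPM score moved the list medians of initiation to -0.30, elongation to -0.67 and oxidative phosphorylation to -0.63. It reversed ribosome assembly (0.042), the mitochondrial ribosome (0.044), glycolysis (0.26), Eif3k (0.096), Id2 (1.31) and Cdk4 (0.094). Lists whose median was small also changed sign with it, among them lysosome (0.64), fatty acid oxidation (0.51), BMP and Id (0.52), growth factor receptors (0.40) and neural stem cell (0.30), and lipid and cholesterol synthesis moved to 0.96. Ribosome assembly was also reversed in the middle of the range of genes per cell (0.11), and the mitochondrial ribosome among transcripts over 1500 bases (0.0022). The oligodendrocyte precursor list was reversed (0.018) without the 5 libraries that reached a mean of 4 over a marker list of another cell type. The cause was not tested. The initiation, elongation, oxidative phosphorylation and proteasome medians stayed negative in all 17 alternatives, and so did the ribosomal proteins outside the score in the 16 that gave a value.

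No paired analysis was possible because each library is a single cell, all compared cells are of the C class, and the labels tie no number to an animal or day. TPM gives no depth, and no counting limit was set on a gene listed at 0.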
